A study of Homo sapiens with 2 samples.

Results

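The genes described here are the ATP-binding cassette (ABC) transporter genes of subfamilies A to G, measured in H1299 cells with and without p53. They were chosen by name: probe sets with exactly 1 gene symbol that starts with ABC, a letter from A to G and a digit, with ABCA1, ABCG1 and pseudogenes left out. This rule gave 40 genes, read by 44 probe sets, of the 18417 genes measured in all. Subfamily A had 11 of them, B had 8, C had 10, D had 3, E had 1, F had 3 and G had 4. H1299 is a human lung carcinoma line without p53 of its own. One group was H1299 cells given p53 and the other was H1299 cells of a negative control, with 1 array each. The labels do not say how p53 was supplied or for how long. All values are log2 intensities of total RNA on an Affymetrix array, and every difference is the log2 intensity with p53 minus that in the negative control. Without replicate arrays no difference has an error or a test, so each one describes these 2 arrays, and a gene is called higher or lower by size alone, at 2-fold or more (a log2 difference of 1).

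ABC proteins bind and hydrolyse ATP through a conserved nucleotide-binding domain, and most use that energy to move a substrate across a membrane. Subfamilies B, C and G include the pumps that export drugs and conjugated metabolites from cells and are known for multidrug resistance in carcinoma cells. Subfamily A moves lipids, subfamily D serves peroxisomes and lysosomes, and subfamilies E and F lack membrane domains and act on ribosomes and translation instead. p53 is a transcription factor that is activated by DNA damage and halts division or starts cell death.

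The labels were checked on a pair of known p53 targets. CDKN1A, a cyclin-dependent kinase inhibitor gene, stood at 12.66 with p53 and 9.18 in the negative control, and MDM2, the ubiquitin ligase gene of p53, at 13.59 with p53 and 10.87 in the negative control. The carcinoma line genes KRT8, KRT18 and VIM lay between 12.47 and 13.07 in both arrays. On the same list CDH2 stood at 10.77 with p53 and 10.85 in the negative control. The keratin gene KRT19 (7.28) and the epithelial adhesion genes EPCAM (5.72) and CDH1 (6.10) were equal in both arrays. All of these equal genes were under 7.38, the median of all probe sets. Markers of other cell types and of lung epithelium were mostly equal in the 2 arrays: 5 of 6 haematopoietic, 8 of 8 fibroblast and endothelial, 4 of 5 hepatocyte and 5 of 6 lung epithelial markers. Values of these 4 lists spanned 3.38 to 8.53 with p53 and 3.38 to 8.14 in the negative control. The exception of size was SCGB1A1, an airway secretoglobin gene, at 8.53 with p53 and 7.09 in the negative control. Whether other cell types have a part in the results below was not tested.

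The drug pump gene ABCG2 had the largest difference of the members, and the ribosome recycling gene ABCE1 the lowest. At 2-fold or more, ABCG2, ABCG4, ABCA12, ABCB6, ABCC5 and ABCB1 were higher, which is 6 of 40 (15%), beside 5.22% of all measured genes. ABCE1 and ABCD2 were lower, 2 of 40 (5%), beside 3.7% of all measured genes. At 1.5-fold, 10 members (25%) were higher, beside 9.4% of all genes, and 3 members (7.5%) were lower, beside 10.1%. The median difference was 0.00 over the members and 0.00 over all genes. Equal values hold both medians there, since 13 members (32.5%) and 35.3% of all genes had exactly the same value in both arrays. The sources do not explain how 35.9% of all probe sets came to hold identical values, so an equal value is reported as listed and not as a measured lack of difference. Among the 27 members with unequal values 16 (59.3%) lay above 0, against 41.6% of the 11913 unequal genes, and their medians were 0.22 and -0.07. The mean of the 2 arrays reached the median of all probe sets in 21 members (52.5%) and in 60.3% of all genes. By subfamily, the median difference was 0.00 in A, 0.13 in B, 0.00 in C, -0.05 in D and -0.28 in F. That of G was 1.09, a value between a pair of equal genes and a pair of genes with large differences, and E holds ABCE1 alone.

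**Figure D1:**
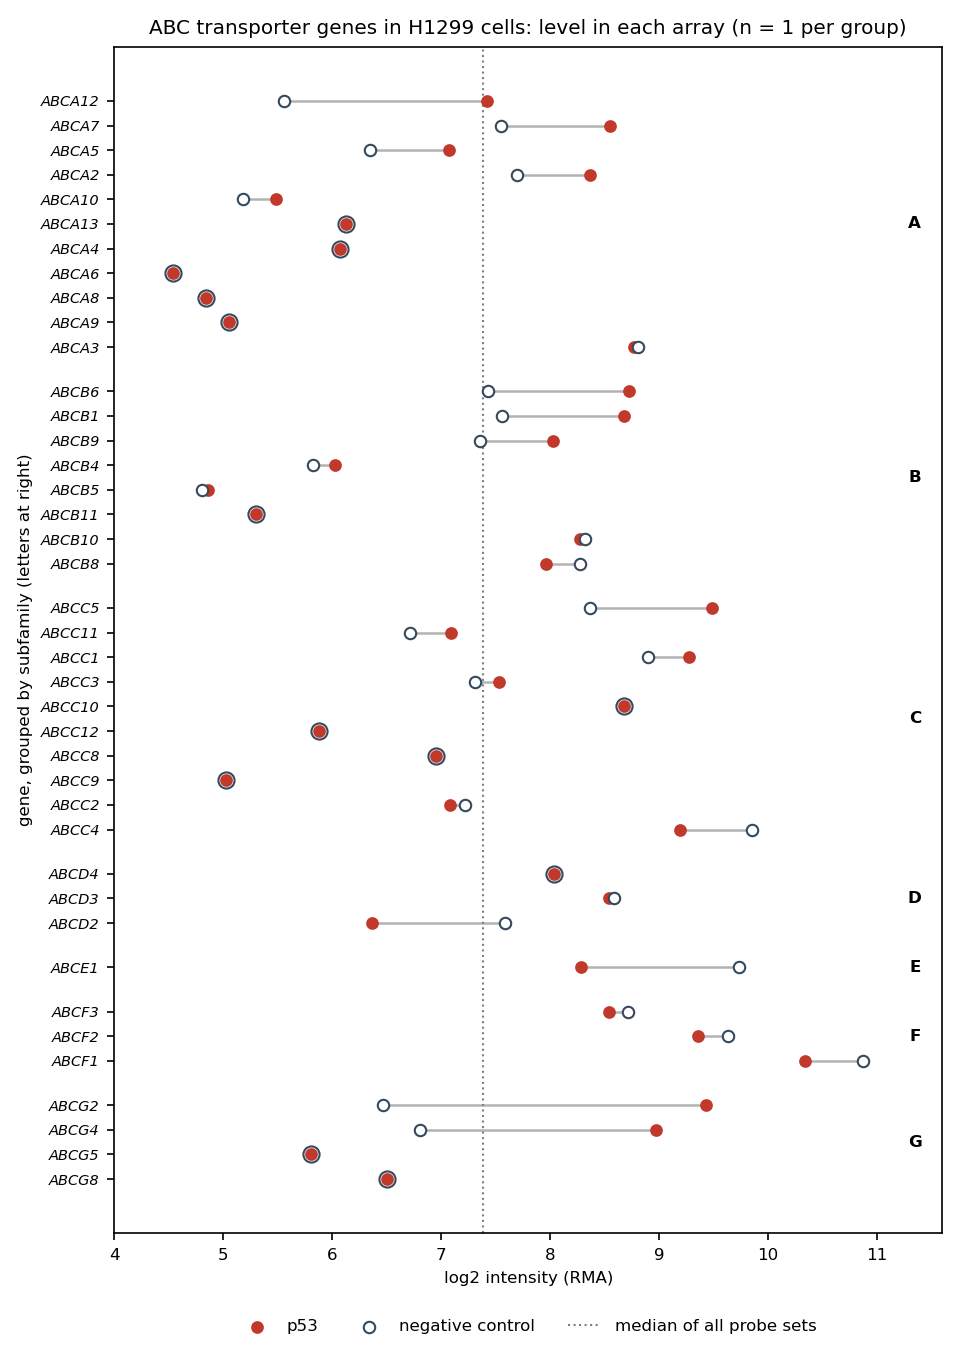
Log2 intensity of each of the 40 ABC transporter genes (rows, grouped by subfamily) in the p53 array (filled) and in the negative control array (open), 1 array per group. A dotted line marks the median of all probe sets, 7.38. ABCG2, at 9.43 with p53 and 6.46 in the negative control, has the longest line, and the 13 genes with concentric points had equal values.

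Among the pumps that export drugs and conjugates, ABCG2 had the largest difference. ABCG2 encodes the breast cancer resistance protein, which exports many anticancer drugs, urate and porphyrins. Its log2 intensity was 9.43 with p53 and 6.46 in the negative control, a difference of 2.97 or 7.84-fold. This was the largest difference of the 40 members in either direction and the 66th highest of the 18417 genes. The control value lay below the median of all probe sets, so the size of the fold rests on a dim control signal.

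ABCB1, the gene of P-glycoprotein, the drug pump of broad specificity, had 8.68 with p53 and 7.56 in the negative control. That was a 2.18-fold higher level, a difference of 1.12. ABCC5, which encodes MRP5, an exporter of cyclic nucleotides and nucleotide analogues, had 9.49 with p53 and 8.36 in the negative control, likewise a difference of 1.12. Both genes were brighter than the median of all probe sets in either array.

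The other multidrug pumps differed less. ABCC4 encodes MRP4, an exporter of cyclic nucleotides and prostaglandins, and ran the opposite way to ABCC5, at 9.19 with p53 and 9.85 in the negative control. Its difference of -0.66 (1.58-fold lower) did not reach 2-fold. ABCC1, the gene of the glutathione conjugate pump MRP1, stood at 9.27 with p53 and 8.90 in the negative control, a difference of 0.37. ABCC3, an organic anion exporter gene, had 7.54 with p53 and 7.32 in the negative control. For ABCC10, the gene of MRP7, both arrays gave 8.68. ABCC11 (0.37), ABCC2 (-0.14), the gene of the apical anion pump MRP2, and ABCB5 (0.06) had a mean below the median of all probe sets, and ABCC12 was equal at 5.88. This group counts 11 genes, of which 3 were higher by 2-fold and 0 were lower, beside 5.22% and 3.7% of all genes, with a median difference of 0.22.

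In subfamily G, ABCG2 was joined by ABCG4. ABCG4, a transporter gene known mainly from the brain, stood at 8.97 with p53 and 6.80 in the negative control, a difference of 2.17 or 4.51-fold. As for ABCG2, the control value lay below the median of all probe sets. The remaining genes of the subfamily, ABCG5 and ABCG8, encode a pair that exports sterols from hepatocytes and gut cells. They were equal in both arrays, at 5.81 and 6.50, below the median of all probe sets. Of the bile transporter genes of subfamily B, ABCB11, the bile salt export pump gene, was equal at 5.30, and ABCB4, the phosphatidylcholine floppase gene, stood at 6.03 with p53 and 5.82 in the negative control. None of these 4 genes of bile and sterol export differed by 1.5-fold.

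Among the lipid transporters of subfamily A, ABCA12 had the largest difference. ABCA12 loads lipids into the lamellar granules of keratinocytes and is the gene of harlequin ichthyosis. It stood at 7.42 with p53 and 5.56 in the negative control, 3.64-fold higher with a difference of 1.86. The control value was very dim, under 5.97, the level that 25% of all probe values lie beneath. Taken from that level the difference was 1.45, or 2.73-fold.

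A further 3 genes of subfamily A lay between 1.5-fold and 2-fold. ABCA7, a phospholipid transporter gene and a risk locus of Alzheimer's disease, had 8.55 with p53 and 7.55 in the negative control, and its difference of 0.998 fell just short of 2-fold. ABCA5, a gene of a lysosomal and endosomal transporter, had 7.07 with p53 and 6.35 in the negative control. Both values of ABCA5 lay below the median of all probe sets. ABCA2, another gene of lysosomal lipid handling, had 8.36 with p53 and 7.70 in the negative control. ABCA3, which loads surfactant lipids in alveolar cells, showed almost no difference, at 8.77 with p53 and 8.81 in the negative control. ABCA10 stood at 5.48 with p53 and 5.18 in the negative control, both dim. The remaining 5 genes, ABCA4, ABCA6, ABCA8, ABCA9 and ABCA13, were equal in both arrays, between 4.54 and 6.13. In all, 1 of the 11 genes reached 2-fold on the higher side and 0 on the lower side, and equal values hold the median at 0.00.

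**Figure D2:**
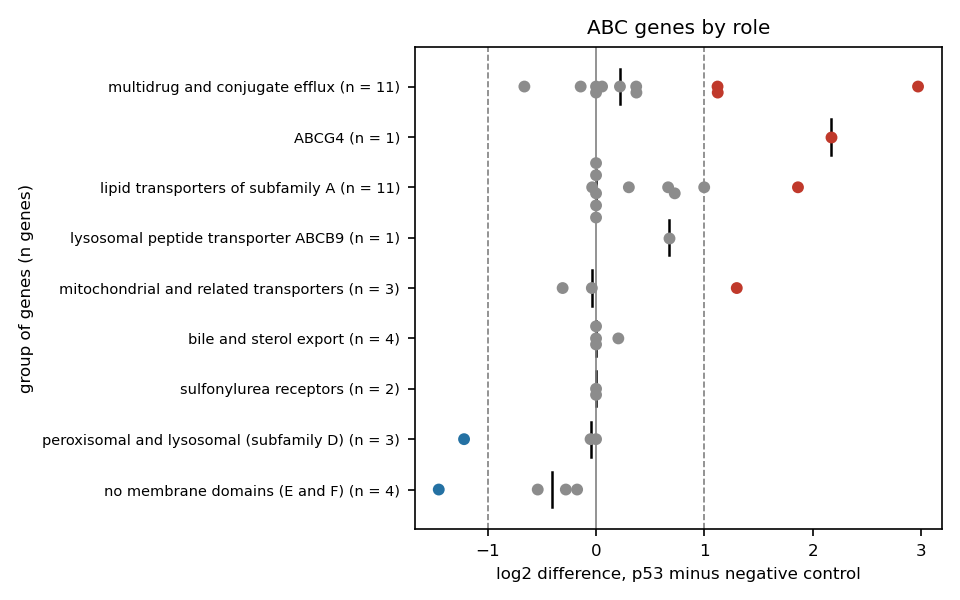
Log2 difference (p53 minus negative control) of each ABC gene by the role of its protein. Each point is 1 gene, the short black bar is the median of the group, and the dashed lines mark 2-fold. Red points are the 6 genes at least 2-fold higher, 3 of them multidrug pumps, and blue points are the 2 genes at least 2-fold lower, ABCD2 and ABCE1.

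Of the members of subfamily B that act in organelles, only ABCB6 reached 2-fold. ABCB6, a porphyrin transporter gene, stood at 8.73 with p53 and 7.43 in the negative control, 2.46-fold higher with a difference of 1.30. ABCB10, a transporter gene of the inner mitochondrial membrane, was at 8.28 with p53 and 8.32 in the negative control. ABCB8, also mitochondrial, was at 7.96 with p53 and 8.27 in the negative control on its brightest probe set. Its 3 probe sets gave differences of -0.31, -0.15 and 0.00, so no probe set was higher. ABCB9, the lysosomal peptide transporter gene, stood at 8.03 with p53 and 7.35 in the negative control, 1.60-fold higher. TAP1, the antigen peptide transporter gene and a relative of ABCB9 that carries no ABC symbol, was 3.49-fold higher, at 12.18 with p53 and 10.37 in the negative control. Its partner gene TAP2 had a difference of -0.41.

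Both members that were lower by 2-fold came from subfamilies D and E. ABCE1, the ATPase gene of ribosome recycling after termination, stood at 8.28 with p53 and 9.74 in the negative control, 2.74-fold lower with a difference of -1.45. It ranked as the 225th lowest of all genes. The gene table lists 2 pseudogenes of ABCE1, and whether its probe set also reads them was not tested.

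All 3 genes of subfamily F lay below 0, none by 1.5-fold. Among all measured genes with unequal values, 6963 lay below 0 and 4950 above, so this direction was the more common one. ABCF1, a translation initiation factor gene, had 10.34 with p53 and 10.88 in the negative control, a difference of -0.54. Its 3 probe sets held identical values and were counted once. ABCF2 had 9.36 with p53 and 9.64 in the negative control, and 2 pseudogenes of it are listed, as are 3 of ABCB10 and 1 of ABCA3. ABCF3 had 8.54 with p53 and 8.71 in the negative control. The median of the 4 proteins without membrane domains was -0.41.

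In subfamily D, ABCD2, the gene of a peroxisomal importer of very long chain fatty acyl-CoA, stood at 6.37 with p53 and 7.58 in the negative control. That was 2.33-fold lower, a difference of -1.22, and here the p53 value was the dim one. ABCD3, the major peroxisomal membrane transporter gene, was at 8.54 with p53 and 8.59 in the negative control. For ABCD4, the lysosomal cobalamin transporter gene, both arrays gave 8.03. The sulfonylurea receptor genes of subfamily C, ABCC8 and ABCC9, regulate potassium channels and were equal in both arrays, at 6.95 and 5.03.

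The spread of the differences changed with intensity and was narrowest among dim genes, so each member was also placed among genes of like mean intensity, in 20 bins of equal size over all measured genes. Of the members, 9 lay above the 5th to 95th percentile band of their bin, 2 lay below it and 29 lay inside. By the way the band is built, about 5% of all measured genes lie above it and about 5% below. Below it were ABCE1 and ABCD2. The 9 above were ABCG2, ABCG4, ABCA12, ABCB6, ABCB1, ABCA7, ABCA5, ABCA10 and ABCB4. Of these ABCA12, ABCA5, ABCA10 (0.30) and ABCB4 (0.21) had a mean below the median of all probe sets, as had ABCD2. The bands there are narrow, -0.34 to 0.30 for ABCA12 and -0.58 to 0.58 for ABCD2. Of the 6504 genes with equal values only 1672 had a mean at or above that median. Unexplained equal values thus narrow the bands of dim genes, and a place outside them says less. ABCC5, although at least 2-fold higher, lay inside its band.

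**Figure D3:**
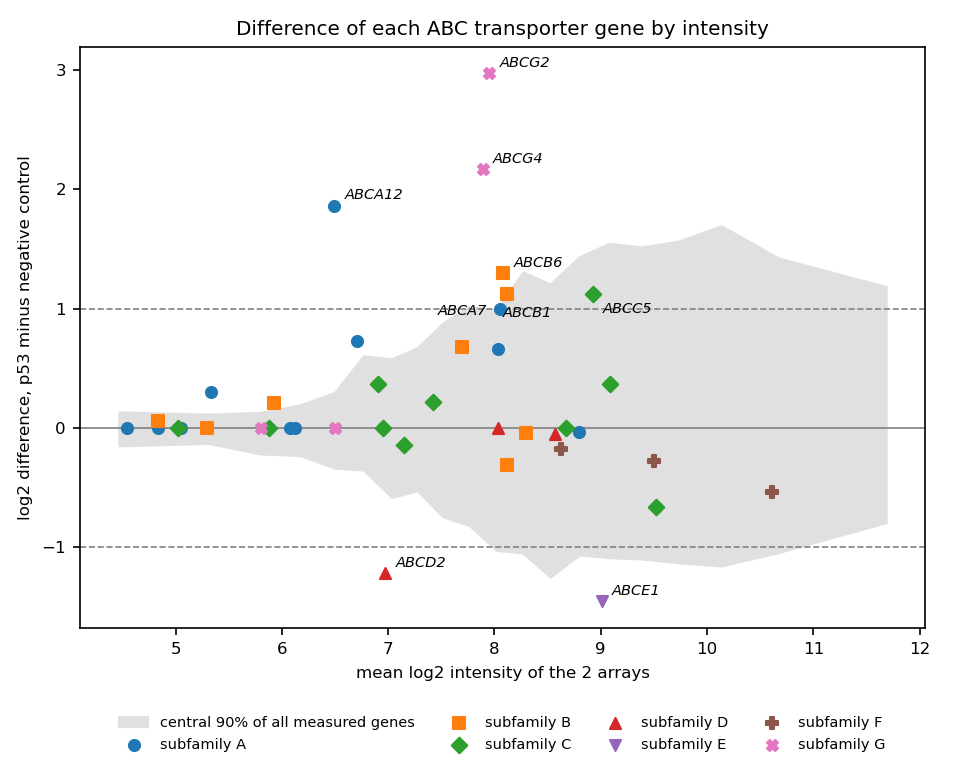
Log2 difference (p53 minus negative control) of each ABC gene against its mean log2 intensity in the 2 arrays, by subfamily. The grey band holds the central 90% of all measured genes of like intensity and the dashed lines mark 2-fold. ABCG2 (2.97), ABCG4 (2.17) and ABCA12 (1.86) lie far above the band, and ABCE1 (-1.45) and ABCD2 (-1.22) lie below it.

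Several members are neighbours in the genome, with no other protein-coding gene starting between them in the RefSeq table. ABCB1 (1.12) and ABCB4 (0.21) are adjacent on chromosome 7, and only ABCB1 reached 2-fold. The subfamily A genes ABCA8, ABCA9, ABCA6, ABCA10 and ABCA5 follow each other on chromosome 17. Along that row the differences were 0.00, 0.00, 0.00, 0.30 and 0.73, so the genes at one end had unequal values. ABCG5 and ABCG8 are adjacent on chromosome 2 and both were equal in the arrays. ABCC12 (0.00) and ABCC11 (0.37) are adjacent on chromosome 16.

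The promoters of the members were searched on both strands for the p53 decamer motif. This is a single copy of the 10-base unit that p53 response elements carry in pairs. The window was the 250 bases before each annotated start in RefSeq (GRCh38.p14), and the table held 50 windows of 33 members. The motif was found in 7 member windows (14%), against 5.57% of the 35116 windows of all genes. These 7 windows belong to 6 genes, ABCG4, ABCA12, ABCC5, ABCC11, ABCA6 and ABCD2. The list thus includes 3 of the 6 higher genes and also ABCD2, a lower gene, and ABCA6, which was equal. No window of ABCG2 (5 windows), ABCB1 (2) or ABCB6 (1) held the motif. A match is a description of these letters and does not show that p53 binds there. For comparison, the GC box GGGCGG, on either strand, was in 24 of the 50 member windows (48%) and 42.6% of all windows, and the E-box CACGTG was in 8 (16%) and 6.34%. Windows of a gene may overlap, as some of ABCG2 do, so a site can count more than once. By gene, the decamer was in 18.2% of the 33 members and 6.8% of all genes. The GC box was in 60.6% and 46.2%, and the E-box in 21.2% and 7.73%. Matches of different motifs may overlap.

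The windows of the 3 higher genes that hold the decamer are printed 5′ to 3′ on the strand of the gene, in lower case with the decamer in capitals. The ABCG4 window is chr11:119148802-119149051 on the plus strand, and its decamer begins 221 bases before the start. The ABCA12 window is chr2:215138627-215138876 on the minus strand, with the decamer 82 bases before the start. The ABCC5 window is chr3:184017885-184018134 on the minus strand, with the decamer 23 bases before the start.
ABCG4: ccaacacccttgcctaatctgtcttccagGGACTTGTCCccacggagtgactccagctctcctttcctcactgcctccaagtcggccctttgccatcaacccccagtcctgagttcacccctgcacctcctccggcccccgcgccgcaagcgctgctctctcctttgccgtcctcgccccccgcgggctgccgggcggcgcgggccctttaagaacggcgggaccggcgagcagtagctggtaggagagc
ABCA12: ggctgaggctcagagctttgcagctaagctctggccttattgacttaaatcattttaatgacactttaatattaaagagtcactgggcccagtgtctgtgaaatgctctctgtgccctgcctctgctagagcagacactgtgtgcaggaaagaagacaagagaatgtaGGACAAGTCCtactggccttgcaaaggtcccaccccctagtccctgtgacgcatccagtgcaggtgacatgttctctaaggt
ABCC5: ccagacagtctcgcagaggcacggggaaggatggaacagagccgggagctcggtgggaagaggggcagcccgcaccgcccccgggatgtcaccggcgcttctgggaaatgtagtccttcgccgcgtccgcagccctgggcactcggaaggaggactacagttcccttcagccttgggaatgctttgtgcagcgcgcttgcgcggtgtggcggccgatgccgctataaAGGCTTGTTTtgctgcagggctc

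The decamer is GGACTTGTCC in ABCG4, GGACAAGTCC in ABCA12 and AGGCTTGTTT in ABCC5. ABCG4 and ABCA12 each have a second annotated start whose window held no decamer.

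Genes of transcription factors known to act on ABC genes were set beside them, together with KEAP1, which is not a transcription factor. NR1I2, NR1H2 and NR1H4 were also on the list but had no value among the measured genes. Of 12 measured sensors of xenobiotics, lipids, oxygen and oxidants 0 reached 2-fold, beside 5.22% of all genes higher and 3.7% lower, so in a list of this size the count is near the background. Equal values were held by 4 of the 12, and their median was 0.00. AHR, the aryl hydrocarbon receptor gene, stood at 10.07 with p53 and 9.59 in the negative control. HIF1A, the hypoxia factor gene, named after its value was seen, had the largest difference of the list, at 12.21 with p53 and 11.54 in the negative control (1.59-fold). NFE2L2, the oxidant response factor gene, was at 10.45 with p53 and 10.49 in the negative control.

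The differences of the 13 members at 1.5-fold or more were recomputed under 6 other ways of processing. Of these, only removal of a lowess trend and quantile normalization could have turned a sign, and neither did for any of the 13. Centring subtracted 0.00, none of the 13 has more than 1 probe set, and an offset or a floor can only shrink a difference. ABCG2 ranged from 2.59 to 3.002, ABCG4 from 1.90 to 2.20 and ABCE1 from -1.45 to -1.36. ABCD2 stood at -0.97, short of 2-fold, with an offset of 32 added to the linear intensities. ABCA7 passed 2-fold with a lowess trend removed (1.03) and after quantile normalization (1.02). ABCA5 (0.56) and ABCB9 (0.58) fell short of 1.5-fold with the offset of 32, and ABCC4 (-0.57) with the lowess trend removed.

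**Figure D4:**
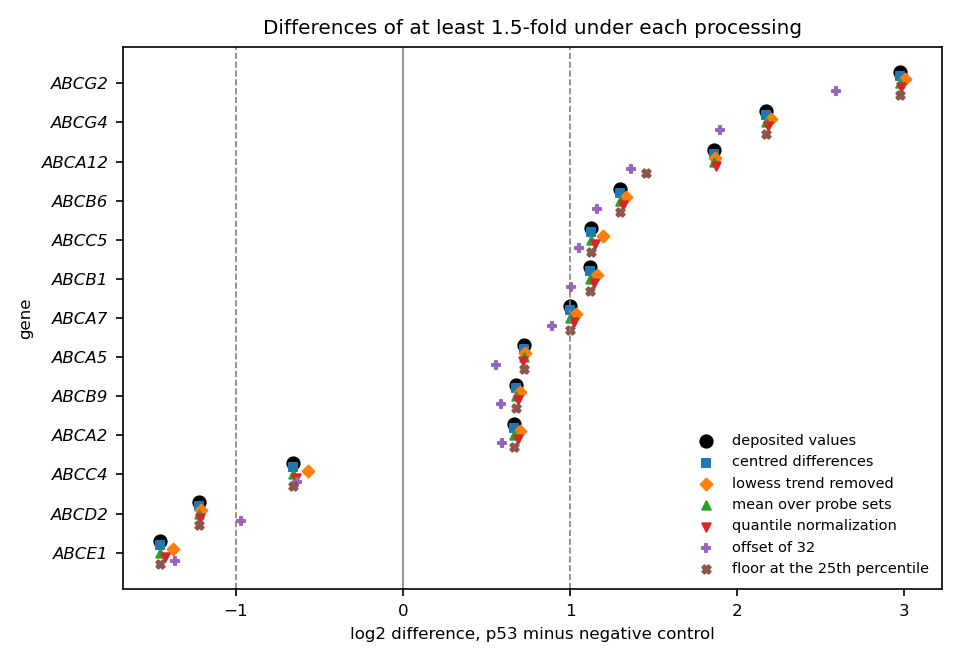
Log2 difference (p53 minus negative control) of the 13 ABC genes that differed by at least 1.5-fold, from the deposited values (black) and under 6 alternatives (symbols), with dashed lines at 2-fold. ABCA7, at 0.89 to 1.03, and ABCD2, at -1.22 to -0.97, straddle the 2-fold line.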

How the data were processed

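Biotin-labelled total RNA of H1299 cells was read on 2 Affymetrix arrays, 1 with p53 and 1 of the negative control. The authors deposited log2 intensities, 1 per probe set and array, made with RMA per the submitters' processing notes, which name no version. That the scale is log2 follows from the range, 1.41 to 14.68. Once sorted, the 2 columns lay within 0.192 of each other, so a change in total RNA per cell cannot be read from them.

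Of 33297 probe sets, 19460 had 1 symbol in GEO's platform annotation; symbols were updated through RefSeq (GRCh38.p14), and the probe set with the highest mean was used per gene. No intensity filter was applied, since one on the higher array keeps genes through the array in which they are high. Levels are given for members at 1.5-fold or more, multidrug pumps with a mean at or above the median, and subfamilies E and F by a rule; levels of other genes were added after their values were seen. The functional groups come from textbook roles. Some genes of the family are not reported here. Members and lists were chosen with earlier results of these data known. The code that counts calls was checked on simulated data. Promoter motifs other than the p53 decamer were added after the values were seen. Python 3.11.15, numpy 2.4.6, pandas 2.3.3, statsmodels 0.14.6 and matplotlib 3.10.9 were used.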

Additional observations from a re-analysis of the deposited data

How the results depend on the processing

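With 1 array per group, no replicate could be left out and no test run, and the number of arrays limits the precision. No paired analysis was possible because each group has 1 array. The yardstick for a median or single difference was 0.090, a robust standard deviation of the log2 difference between probe sets of a gene (263 genes). It used only probe sets with unequal values and a mean at or above the median, so it was not estimated for dim genes. It holds no variation between cultures, and counts were compared by a ratio of 1.5. Of 114 alternative values of 19 named genes, 111 kept their side of 2-fold, and the exceptions were ABCA7 and ABCD2 as given above. Much of that count was fixed in advance. Centring and the mean over probe sets could move none of the 19, and an offset or a floor can only shrink a difference. Genes with small differences also lay far from the 2-fold line. Centring subtracted 0.00 and could move nothing, and the mean over probe sets moved no count or median. Quantile normalization moved no median past the yardstick and gave 7 higher genes in place of 6, ABCA7 being added.

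The count of higher genes (6) was 10 at 1.5-fold, 3 at 3-fold and 0 among genes with a mean at or above the 75th percentile (9.01). The count of lower genes (2) was 0 at 3-fold and 1 with an offset of 32, with a filter at the median and with one at the 75th percentile. The family median (0.00) was 0.22 without equal genes, 0.26 as a mean and -0.54 under the filter at the 75th percentile, where few members are left. For subfamily A (0.00) it was 0.67 with the filter at the median, 0.70 without equal genes and 0.41 as a mean. Subfamily B (0.13) gave 0.68 with the filter at the median, 0.028 from the floor at the 25th percentile and 0.38 as a mean. Subfamily C (0.00) gave 0.22 with the filter at the median, -0.15 with that at the 75th percentile, 0.30 without equal genes and 0.13 as a mean. Subfamily D (-0.05) gave -0.63 without equal genes and -0.42 as a mean. Subfamily F (-0.28) gave -0.41 with the filter at the 75th percentile and -0.19 with the lowess trend removed. Subfamily G (1.09) gave 2.57 with the filter at the median and without equal genes, 0.95 with an offset of 32 and 1.29 as a mean. These filters act on the mean of the 2 arrays. In the negative control ABCG2 (6.46), ABCG4 (6.80), ABCB9 (7.35) and ABCC3 (7.32) lay below the median of all probe sets. They passed the filter at the median only through the p53 array, which raises the filtered medians of B, C and G by construction. Those values give no support to a difference.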

Other observations

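Uptake carriers and glutathione enzymes, which work beside the ABC pumps in handling drugs and conjugates, were counted the same way. Of 10 organic anion uptake carrier genes 1 passed 2-fold, on the higher side: SLCO1A2 stood at 7.52 with p53 and 6.42 in the negative control, a 2.14-fold higher level. Its control value lay below the median of all probe sets, so the fold rests on a dim control signal. Another 4 of the carrier genes were equal in both arrays, and the lowest was SLCO4A1 (-0.70), a name chosen after its value was seen. Of 17 genes of glutathione supply and conjugation 0 reached 2-fold, 2 were higher and 3 were lower by 1.5-fold, beside 9.4% and 10.1% of all genes. The closest to 2-fold, named after their values were seen, were the glutathione synthetase gene GSS, at 11.39 with p53 and 10.44 in the negative control, and the transferase gene GSTP1, at 13.18 with p53 and 12.26 in the negative control. GCLC, the catalytic subunit gene of glutamate-cysteine ligase, had a difference of 0.06 and its modifier subunit gene GCLM one of -0.44. Among all genes 5.22% were at least 2-fold higher and 3.7% at least 2-fold lower, so these counts are near the background for lists of this size.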
